A study of Homo sapiens with 5 samples.

Results

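The intergenic FOXO3A peaks of U-937 cells were the peaks whose summit lay outside every protein-coding and lncRNA gene, and over 1000 bp from every start and end of such a gene. They numbered 381 of the 2272 peaks of U-937 replicate 1 (16.8%, exact 95% interval 15.3 to 18.4). Membership used position alone, so neither the strength nor the width of a peak entered the choice. Of the other U-937 peaks, 1202 lay within 1000 bp of a gene start or end (boundary peaks) and 689 inside genes away from their ends (gene body peaks).

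The series mapped FOXO3A by CUT&Tag in 2 leukemia lines, U-937 with 2 libraries and THP-1 with 3, all made with the same antibody from cells with no treatment named in the labels. U-937 is an established human line with monocytic features that the labels class as an acute myeloid leukemia cell. A peak list holds no expression, so the line's identity was not checked against markers. Only replicate 1 of each line held peaks, 2272 in U-937 and 1282 in THP-1, and U-937 replicate 2 held 0, so no value below has a replicate check. Read depth was not given in the sources used here.

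FOXO3A belongs to the forkhead family of transcription factors, and AKT, by phosphorylating it, holds it in the cytoplasm. In the nucleus it binds the forkhead motif and is known for activating genes of cell cycle arrest, apoptosis, autophagy and stress defence. Transcription factors bind promoters and also distant regulatory elements, many of them in the sequence between genes. In CUT&Tag an antibody brings the Tn5 transposase to its target, and Tn5 also cuts open chromatin, so a peak need not contain a bound factor. The fold enrichment of a peak is the authors' own value, on a linear scale, and what it is relative to was not stated. The gene nearest to a peak is given as its position, not as its target.

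No genome sequence was used here, so the peaks themselves are not printed. Shown instead are annotated elements beside members, taken from RefSeq (GRCh38.p14) 5′ to 3′. The only member within 1 kb of a miRNA gene lay 817 bp from the hairpin of MIR4425, and the fourth strongest member lay 20571 bp from that of MIR223, a miRNA abundant in myeloid cells. Capitals mark the seed, bases 2 to 8 of the mature miRNA.
hsa-miR-4425 (chr1:25023552-25023573, plus strand): uGUUGGGAuucagcaggaccau
hsa-miR-223-5p (chrX:66018895-66018916, plus strand): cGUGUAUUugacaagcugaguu
hsa-miR-223-3p (chrX:66018937-66018958, plus strand): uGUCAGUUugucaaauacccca

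A few genes had both an intergenic peak nearest to them and a U-937 peak over their own promoter. The 250 bases before the start of 3 of them are printed, with capitals for the bases that the promoter peak covered. The start is that of the RefSeq promoter table, which for RAB10 lies 799 bp inside the gene span from which distances were measured.
EEPD1 (chr7:36153004-36153253, plus strand): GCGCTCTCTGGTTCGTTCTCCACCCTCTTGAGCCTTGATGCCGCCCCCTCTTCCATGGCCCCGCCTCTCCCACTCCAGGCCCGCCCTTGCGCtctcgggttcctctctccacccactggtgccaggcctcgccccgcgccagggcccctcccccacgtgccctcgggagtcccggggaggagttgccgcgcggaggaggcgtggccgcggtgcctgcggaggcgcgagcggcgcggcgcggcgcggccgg
RAB10 (chr2:26033834-26034083, plus strand): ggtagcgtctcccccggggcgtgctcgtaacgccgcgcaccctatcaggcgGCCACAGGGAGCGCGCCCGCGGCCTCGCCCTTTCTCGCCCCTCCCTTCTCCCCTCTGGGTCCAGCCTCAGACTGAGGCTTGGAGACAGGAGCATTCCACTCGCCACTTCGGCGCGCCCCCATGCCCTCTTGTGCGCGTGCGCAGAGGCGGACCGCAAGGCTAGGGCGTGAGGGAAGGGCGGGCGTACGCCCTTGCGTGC
ENSA (chr1:150629613-150629862, minus strand): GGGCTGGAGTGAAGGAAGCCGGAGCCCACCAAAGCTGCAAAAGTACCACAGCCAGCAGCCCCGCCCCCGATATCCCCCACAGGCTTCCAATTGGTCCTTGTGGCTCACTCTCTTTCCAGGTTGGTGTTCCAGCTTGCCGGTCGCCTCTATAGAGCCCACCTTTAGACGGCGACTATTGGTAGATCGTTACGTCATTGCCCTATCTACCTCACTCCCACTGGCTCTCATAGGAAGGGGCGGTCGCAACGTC

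Intergenic peaks thinned out with distance from protein-coding genes. Their summits lay a median of 28108 bp from the nearest protein-coding start or end (quartiles 9061 and 90824 bp), and the rule sets only the lower limit of this distance. Of the 381, 57 lay over 1 to 5 kb away, 53 over 5 to 10 kb, 141 over 10 to 50 kb, 43 over 50 to 100 kb, 74 over 100 to 500 kb and 13 over 500 kb. Set against the intergenic sequence available in each range, this was 0.715 peaks per Mb at over 1 to 5 kb (exact Poisson 95% interval 0.541 to 0.926) and 0.704 per Mb at over 5 to 10 kb. The density was 0.479 per Mb at over 10 to 50 kb, 0.269 at over 50 to 100 kb, 0.187 at over 100 to 500 kb and 0.0459 at over 500 kb (0.0245 to 0.0786). Sequence over 500 kb from any protein-coding gene made up 22.0% of the 1287.2 Mb of intergenic sequence and held 3.41% of the peaks. That sequence includes assembly gaps, in which no peak can be called, and peaks of 1 library are not replicates, so the decline is described and not tested.

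**Figure D1:**
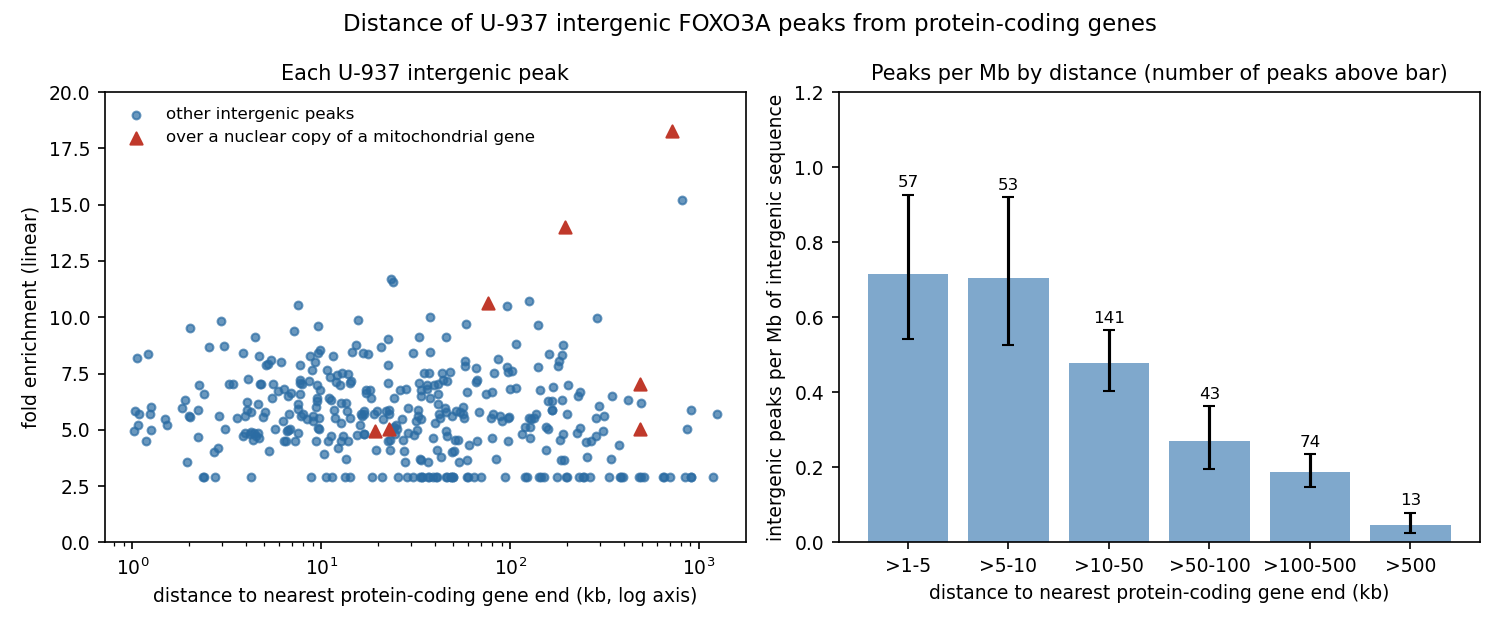
Left, the fold enrichment of each of the 381 U-937 intergenic peaks (linear axis) against its distance to the nearest protein-coding gene end (log axis), with the 7 peaks over nuclear copies of mitochondrial genes as triangles. Right, the peaks per Mb of intergenic sequence by distance, with exact Poisson 95% intervals that cover counting error only and the number of peaks above each bar; the density is 0.715 per Mb at over 1 to 5 kb and 0.0459 per Mb at over 500 kb.

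The members favoured neither end of their nearest gene beyond counting error. Strand was known for the nearest gene of 292 members, of which 162 lay nearest to a 5′ end and 130 nearest to a 3′ end. The share at 5′ ends was 55.5% (exact 95% interval 49.6 to 61.3), and 5′ ends were also the nearer ones in 50.0% of the intergenic sequence. At over 1 to 5 kb the numbers were 26 and 19. The median fold was 5.69 beside 5′ ends and 5.11 beside 3′ ends.

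Both flanking protein-coding genes had a known strand for 246 members. Divergent pairs, whose 5′ ends face each other, flanked 67 of them (27.2%, 21.8 to 33.3) and 23.5% of the intergenic sequence. Tandem pairs flanked 130 (52.8%) and 53.0% of the sequence, and convergent pairs 49 (19.9%, 15.1 to 25.5) and 23.4%. Each share of peaks had the share of sequence within its interval. An lncRNA gene was nearer than any protein-coding gene for 205 members (53.8%), and over all members the nearest lncRNA gene was a median of 33203 bp away. The matching share of the intergenic sequence was not measured, so the 53.8% has nothing to be set against.

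Intergenic peaks had a lower median fold and a smaller median width than boundary peaks of the same library. Their median fold enrichment was 5.60 (quartiles 4.48 and 6.98, range 2.89 to 18.3), against 6.58 for boundary peaks and 5.86 for gene body peaks. The median width was 220 bp in intergenic peaks, 252 bp in boundary peaks and 226 bp in gene body peaks. The 95% interval of the median fold, from order statistics over peaks, was 5.47 to 5.77 for intergenic, 6.40 to 6.68 for boundary and 5.69 to 6.03 for gene body peaks. The interval of the intergenic median thus lay below that of the boundary median and overlapped that of the gene body median. These intervals treat peaks as independent and cover no variation between libraries.

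Many of the weak intergenic peaks shared 1 value. The lowest fold of the list, 2.89, with a -log10 q of 1.56, was held by 59 intergenic peaks (15.5%, 12 to 19.5), by 18 boundary peaks (1.50%) and by 87 gene body peaks (12.6%), against 7.22% of all U-937 peaks. Of the 13 members over 500 kb from a protein-coding gene, 8 were at that value, and of the 57 at over 1 to 5 kb 4 were. At the strong end, 134 intergenic peaks (35.2%, 30.4 to 40.2) had a -log10 q of at least 5, against 47.3% of all U-937 peaks. The share was 54.5% for boundary peaks and 41.4% (37.7 to 45.1) for gene body peaks, and the gene body interval overlapped the intergenic one. The members at the lowest fold also held the lowest -log10 q of the list.

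**Figure D2:**
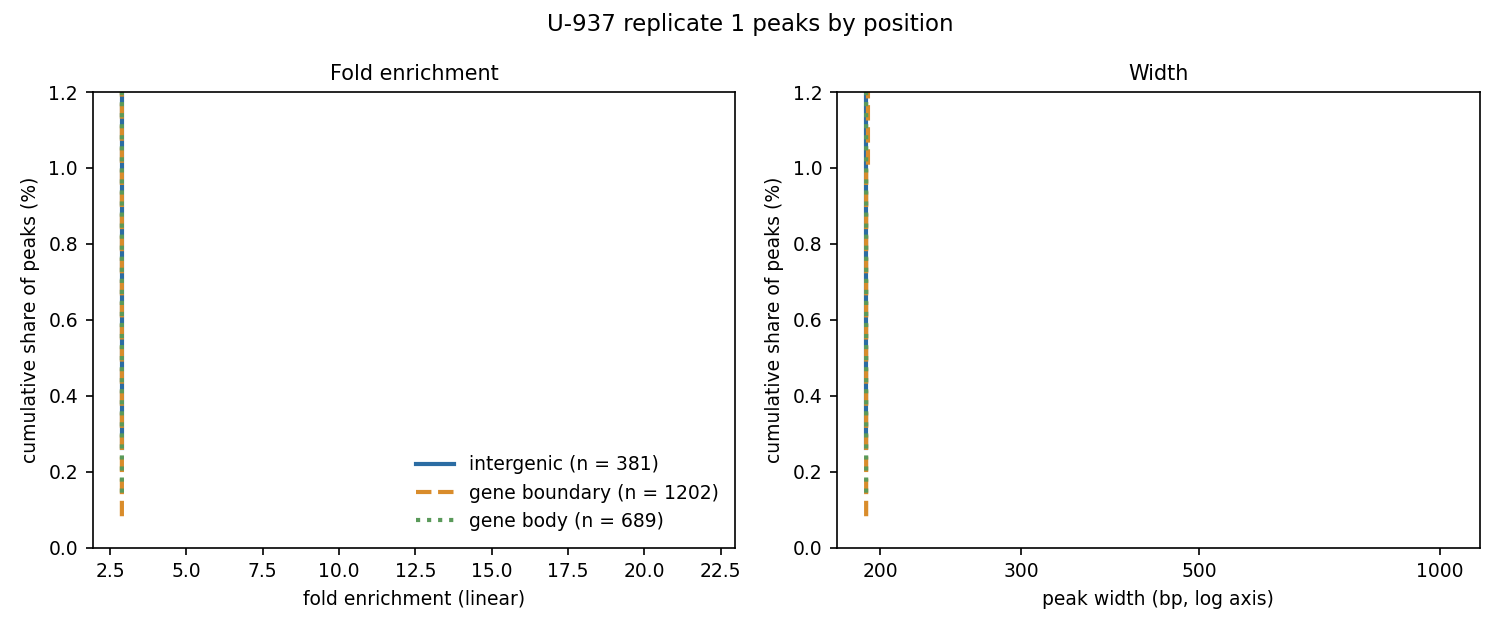
Cumulative share of U-937 replicate 1 peaks (percent) by fold enrichment (left, linear) and by width (right, bp on a log axis), for 381 intergenic, 1202 boundary and 689 gene body peaks. The vertical axis shows only the lowest part of this share, so most of each curve, with its median, lies outside the panels. The medians of intergenic and boundary peaks were 5.60 and 6.58 for fold and 220 and 252 bp for width. At the lowest fold the curves of all classes already reach beyond the axis (15.5% of intergenic, 1.50% of boundary and 12.6% of gene body peaks). The left panel therefore does not show how the classes differ.

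The strongest member lay over MTCO1P40, a nuclear copy of the mitochondrial cytochrome oxidase gene MT-CO1, at chr17:53105733-53106461, with a fold of 18.3 and 716594 bp from KIF2B, which encodes a mitotic kinesin. The second, of fold 15.2, was at chr17:22521368-22521570, 816862 bp from the potassium channel gene KCNJ18 and 765 bp from MTCYBP13, another mitochondrial gene copy. The third, of fold 13.99, overlapped MTRNR2L12, a nuclear relative of the mitochondrial 16S rRNA gene, 196229 bp from EPHA6, which encodes an ephrin receptor. The 3 strongest members were thus all at or beside annotated copies of mitochondrial genes.

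The next strongest member lay at chrX:65998132-65998407 with a fold of 11.7. The miR-223 host gene MIR223HG had its nearer end 17162 bp away and VSIG4, which encodes a complement receptor of macrophages, lay beyond it on the same side, 23439 bp away. A member of fold 11.5 at chr2:26009081-26009464 lay 24003 bp from the 5′ end of RAB10, a small GTPase gene of vesicle transport. The member near NXT1, an mRNA export factor gene, had a fold of 10.7 at 125107 bp, and that near TAGLN2, which encodes an actin-binding protein, a fold of 10.5 at 7525 bp. The remaining 3 of the 10 strongest were over the mitochondrial copy MTND4P24 near DCAF12L1 (fold 10.6), near the predicted gene LOC124907776 (fold 10.5) and 37687 bp from PLXNA1, a semaphorin receptor gene (fold 9.99).

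In 7 members the peak overlapped a nuclear copy of a mitochondrial gene, out of 13 such peaks in the whole U-937 list. Besides MTCO1P40, MTRNR2L12 and MTND4P24 these were MTND2P28 (fold 4.96) and MTATP6P1 with MTCO3P12 (fold 5.05) on chromosome 1, and MTND5P10 with MTND6P22 (fold 5.02) and MTND4P35 (fold 7.01) on chromosome 5. The peak over MTATP6P1 and MTCO3P12 was the widest member, at 1031 bp, followed by that over MTCO1P40 at 729 bp and one near TANK at 596 bp, and the narrowest members were 192 bp wide. Near-identical copies can share reads with each other and with the mitochondrial genome, so the assignment of these peaks to their sites is uncertain. Without the 7, the median fold of intergenic peaks was 5.60 and the highest 15.2. That highest fold was at the site 765 bp from MTCYBP13, which overlapped no such copy and so was kept.

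A summit inside a gene of another kind was found for 15 members (3.94%, 2.22 to 6.41), against 1.50% of all U-937 peaks. Without the members over mitochondrial copies it was 2.41%, while the 1.50% still includes peaks over such copies. The rule keeps members out of protein-coding and lncRNA genes but not out of genes of other kinds. The share of intergenic sequence inside such genes was not measured, so the 3.94% cannot be set against it. By gene the 15 were 7 pseudogenes, 7 transcribed pseudogenes and 1 tRNA gene. The strongest member over a transcribed pseudogene overlapped TMEM277P near ACP4 (fold 9.62, with its summit 70 bp outside). Members also overlapped KIF28P (fold 8.46), PPIEL (fold 7.37) and TNFRSF10B-AS1 (fold 7.02), the last 5546 bp from the TRAIL receptor gene TNFRSF10B. Counted by the whole peak rather than the summit, 17 members overlapped such a gene, and the other 364 overlapped no gene of the table.

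Genes of small structural RNAs lay beside a few members. Both members near PARP16 on chromosome 15 lay by genes of U5 snRNA, the RNA at the centre of the spliceosome. The first, at chr15:65296313-65296667 (fold 5.54), was 390 bp from RNU5A-1, and the second, at chr15:65304950-65305144 (fold 6.75), was 171 bp from RNU5B-1. A peak of fold 4.91 had its summit inside the tRNA gene TRX-CAT1-8, 4248 bp from NARF. Members lay 426 bp from TRI-AAT2-1 (fold 5.11) and 137 bp from TRN-GTT2-3 (fold 2.89). The member 817 bp from MIR4425, named with these after the values were seen, had a fold of 8.05 and was nearest to RUNX3 among protein-coding genes.

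Most intergenic peaks stood alone, as did most peaks of the whole U-937 list. Another U-937 summit lay within 10 kb of 20 members (5.25%, 3.24 to 7.99), against 4.31% of all U-937 peaks. Without the members over mitochondrial copies it was 4.28%. Members themselves formed 7 pairs and 0 larger clusters at that distance, and the other 367 had no intergenic neighbour within 10 kb. The pairs included those by the U5 genes near PARP16, near XDH (folds 7.17 and 4.78), near USP3 (5.69 and 5.01) and near BCOR, a corepressor gene mutated in leukemia (5.69 and 4.80), and 2 pairs over mitochondrial copies.

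The 381 members had 356 different nearest protein-coding genes, and 332 of these were nearest to a single member. UACA, which encodes a regulator of stress-induced apoptosis, was the only gene nearest to 3 members, with folds of 8.76, 6.89 and 4.65 at 191310, 167682 and 128086 bp. TLE3, a Groucho corepressor gene, had 2 members, with folds of 5.97 and 4.45 at 1839 and 251307 bp. Both genes fell in the megabase chr15:70000001-71000000, which held 5 members. The next megabase by number, chr7:36000001-37000000, held 4, of which 2 were nearest to EEPD1 and 2 to AOAH, which encodes a lipopolysaccharide-inactivating enzyme of phagocytes. Of 319 megabases with a member, 266 had 1 and 47 had 2. Other genes nearest to 2 members, named after the values were seen, included DUSP4 (folds 9.65 and 6.68), ITGA6 (7.67 and 7.18), CTNNB1 (7.52 and 6.50), SIRPA (7.02 and 5.60) and ETS2 (4.95 and 4.13).

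Chromosomes differed in how densely their intergenic sequence carried peaks. Over all chromosomes there were 0.296 intergenic peaks per Mb. Chromosome 15 had 28, or 1.01 per Mb (exact Poisson 95% interval 0.671 to 1.46), chromosome 20 had 23, or 0.791 per Mb (0.502 to 1.19), and chromosome 19 had 16, or 0.778 per Mb (0.445 to 1.26). At the low end were chromosomes 5 with 8 (0.0964 per Mb), 12 with 5 (0.0972) and X with 9 (0.098). As a share of the chromosome's own U-937 peaks, intergenic peaks made up 29.2% on chromosome 15 (20.3 to 39.3), 25.8% on chromosome 20 and 7.55% on chromosome 19 (4.38 to 12). The high density of chromosome 19 thus went with a low intergenic share, and that of chromosome 15 with a high one. The number of copies of each chromosome in the line was not measured here. Density also fell with distance from protein-coding genes, and the chromosomes were not matched for that distance.

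**Figure D3:**
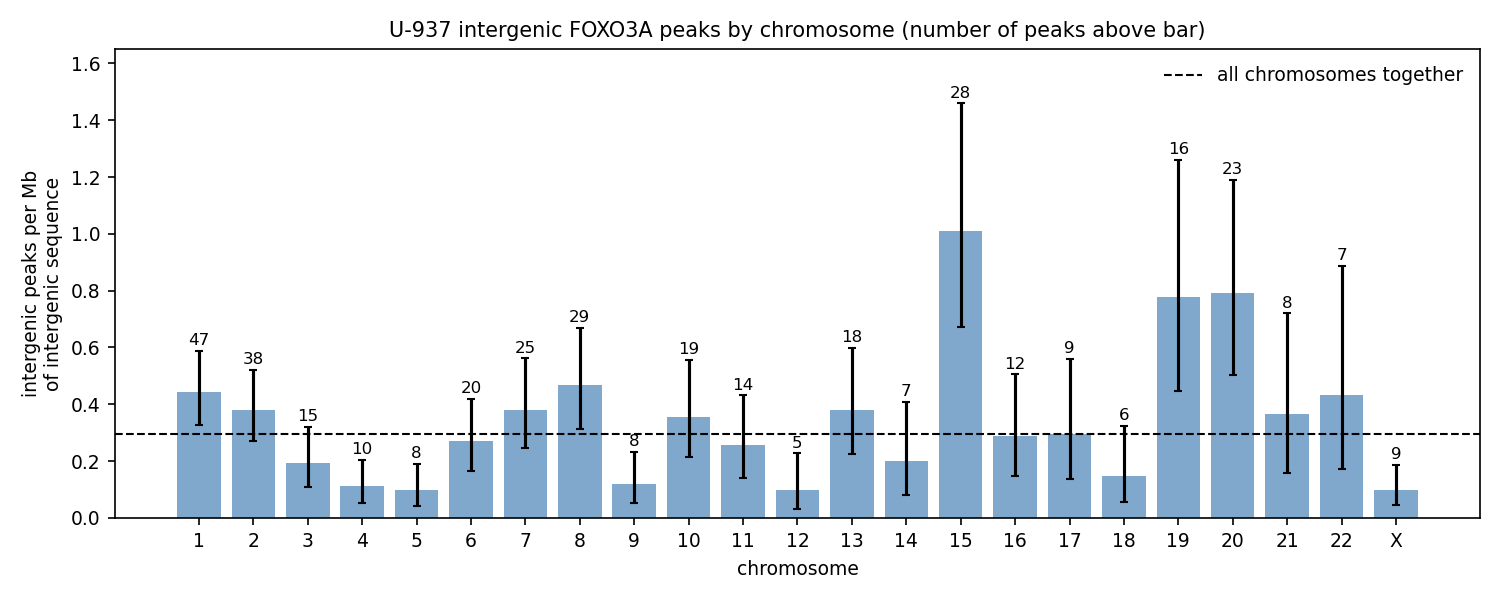
U-937 intergenic peaks per Mb of intergenic sequence by chromosome, with exact Poisson 95% intervals that cover counting error only and the number of peaks above each bar. The dashed line is the density over all chromosomes, 0.296 per Mb; chromosome 15 stands at 1.01 per Mb and chromosome 5 at 0.0964.

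Myeloid transcription factor genes were the nearest gene to a member in 7 of 48 cases, against 1.80% of all protein-coding genes. They were MYC (fold 5.69 at 16899 bp), FOS (5.85 at 19672 bp), RUNX1 (3.59 at 53812 bp), RUNX3 (8.05 at 57548 bp), ID2 (5.70 at 136945 bp), ZEB2 (7.79 at 139817 bp) and KLF6 (2.89 at 483128 bp). The peak near KLF6 was thus at the lowest fold of the list. Of the 7 genes, 4 lay within 100 kb of their peak, while 77.2% of all members lay within 100 kb of a protein-coding gene. The median fold of the 7 peaks was 5.70, beside 5.60 over all members. A gene with long flanking intergenic sequence is nearest to more positions than a gene in a crowded stretch, so these counts do not compare like with like, and no test was made. All the gene lists were also chosen with earlier results of these data known. They share members, among them MYC, RUNX1 and KLF6, so their shares are not independent.

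Monocyte and granulocyte genes were nearest in 3 of 45 cases (6.67%), against 1.80% of all protein-coding genes, and all 3 peaks were close. The limit given for the myeloid list, that genes with long intergenic flanks are nearest to more positions, holds for every list. TYROBP, which encodes the adaptor DAP12 of myeloid receptors, had a peak of fold 8.37 at 1214 bp from its 5′ end. TLR4, the lipopolysaccharide receptor gene, had one of fold 5.69 at 1087 bp from its 3′ end, and CSF3R, the receptor gene for the granulocyte growth factor G-CSF, one of fold 5.51 at 3584 bp from its 5′ end. Of 40 inflammation and NF-kB genes, 1 (2.5%) was nearest to a member, a share near that of all protein-coding genes. It was the chemokine gene CCL20, with a fold of 6.03 at 1258 bp from its 3′ end.

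Textbook FOXO targets were nearest in 4 of 47 cases (8.51%), against 1.80% of all protein-coding genes, and their peaks were mostly far off and weak. IRS2, which encodes an adaptor of insulin signalling, was the only one within 100 kb, with a fold of 4.48 at 97316 bp. PPARGC1A (177452 bp), KLF6 (483128 bp) and CITED2 (904669 bp) each had a peak at the lowest fold of 2.89. Leukemia genes were nearest in 4 of 40 cases (10.0%), MYC, PTPN11 (fold 2.89 at 28323 bp), RUNX1 and BCOR. None of 30 neuronal genes was nearest to a member, which allows a share of up to 10.0% and so does not set them apart from all protein-coding genes. In all, 16 of the 242 symbols in the 6 lists were the nearest gene of a member, 10 of them within 100 kb.

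**Figure D4:**
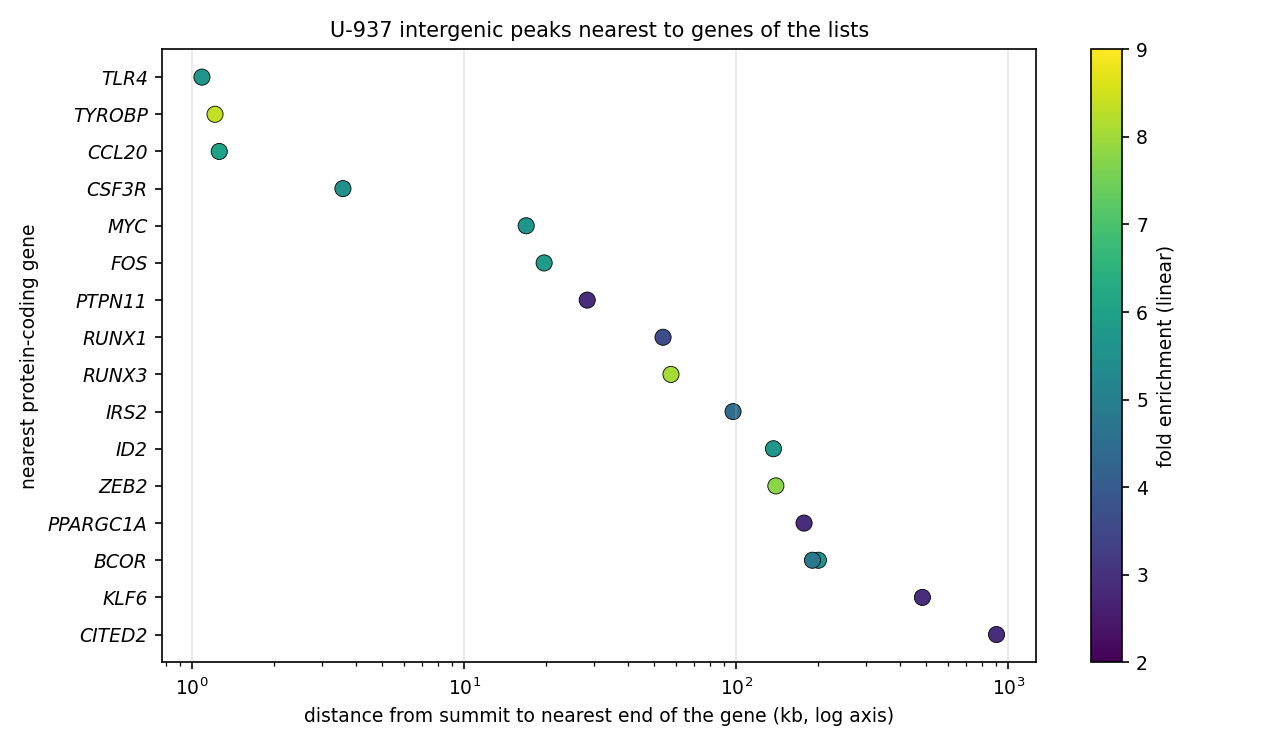
Distance from summit to the nearest gene end (kb, log axis) of each U-937 intergenic peak whose nearest protein-coding gene is on a list, coloured by fold enrichment. TLR4, TYROBP, CCL20 and CSF3R lie within 3584 bp of their peak, BCOR has 2 peaks, and KLF6 and CITED2, at 483128 and 904669 bp, are at the lowest fold.

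Few members were nearest to a gene that also carried a boundary peak. Of the 356 nearest genes 11 did (3.09%, 1.55 to 5.46), against 7.04% of all protein-coding genes. Genes with long flanking intergenic sequence are more often nearest, so these shares do not compare like with like and were not tested. Among the genes with a member at over 1 to 5 kb it was 4 of 57 (7.02%, 1.95 to 17.0). EEPD1, which encodes an endonuclease of replication fork repair, had the strongest boundary peak of the 11, at fold 15.3. Its members lay 33831 bp before its 5′ end (fold 6.50) and 2013 bp beyond its 3′ end (fold 9.52). At RAB10 the distal peak was the stronger, with folds of 11.5 at the distal and 6.88 at the boundary peak. ENSA, which encodes an inhibitor of the phosphatase PP2A, had folds of 8.43 at the distal and 8.17 at the boundary peak. ZEB2 had 7.79 and 6.59, but its boundary peak lay 927 bp from its 3′ end and not at its promoter. Over the 12 members concerned, the distal peak was the stronger in 5 and the weaker in 7.

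A boundary peak overlapped the 250 bases before an annotated start by at least 1 base in 8 of these genes, among them the 3 promoters printed above. It covered 92 of the 250 bases at EEPD1, 199 at RAB10 and 250 at ENSA, but only 2 at CLPB and 79 at CAMTA1. At IFT27, ATRN and TAOK1 it covered 160, 178 and 250. The letters GTAAACA, a core of the forkhead motif, were searched on both strands, so that TGTTTAC also counted, with no other motif searched. Neither string was found in the 8 windows, whose median GC content was 67.2%, and 2.98% of the 35116 promoter windows of this length held one.

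Overlap with THP-1 was rare. A THP-1 peak overlapped 2 of the 381 members (0.525%, 0.0636 to 1.88), against 1.10% of all U-937 peaks, and these 2 were 0.193% of the 1037 THP-1 peaks on chromosomes. They were the second strongest member, by MTCYBP13 and nearest to KCNJ18, with folds of 15.2 in U-937 and 26.8 in THP-1, and the member over MTND4P24, with 10.6 in U-937 and 6.87 in THP-1. Folds of different lists are given side by side and not compared. Both sites were at or beside copies of mitochondrial genes, and 0 members elsewhere overlapped a THP-1 peak. Without the members over mitochondrial copies the share was 0.267%. A THP-1 summit lay within 10 kb of 9 members. The matching share of all U-937 peaks was not measured, so this count has nothing to be set against.

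At the limit of the rule, the members closest to a gene end lay at 1018 bp from S100B (fold 4.95), 1035 bp from TRNP1 (5.86), 1063 bp from TESK1 (8.20), 1070 bp from GRK4 (5.20) and 1087 bp from TLR4. The peaks just inside the limit, which are not members, lay outside genes at 993 bp from RAP2A (fold 7.99), 927 bp from ZEB2 (6.59), 917 bp from PRPSAP1 (4.48), 903 bp from SCRT2 (6.88) and 902 bp from RAB11FIP1 (5.25). At the other extreme, 2 members lay over 1 Mb from any protein-coding gene, 1240538 bp from the neuronal receptor gene SLITRK5 (fold 5.69) and 1190536 bp from ASB3 (fold 2.89). The next farthest were 910634 bp from LOC124903233 (fold 5.87), 910125 bp from GSDMC (2.89) and 904669 bp from CITED2. Of these 5 farthest members, 3 were at the lowest fold.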

How the data were processed

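FOXO3A CUT&Tag libraries came from U-937 (2) and THP-1 (3) cells. The submitters' processing notes name Bowtie2, Picard and build hg38, and no source used here names the peak caller, its settings or any version. The authors deposited 1 peak list per library without a header. Read in the narrowPeak layout, each deposited peak has a score, a fold enrichment (linear ratio, background unstated), and its p-value and its q-value as -log10. Depth is unknown.

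The summit was the start plus the deposited offset, counted from 1, and chromosomes 1 to 22 and X were used. Gene spans came from the RefSeq table of GRCh38.p14, of which 58961 of 59792 genes were kept, leaving out those whose coordinates broke the order of their chromosome. Strand came from the RefSeq promoter table and was given for 79.7% of protein-coding genes. Intergenic sequence was sampled every 100 bp between the first and the last gene of each chromosome; 1 member lay outside that range. Nuclear mitochondrial copies were recognised by their symbols. All 242 list symbols were in the table; the lists leave out 1 gene that is not reported here.

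No test was made over peaks, because peaks of 1 library are not replicates. Shares have exact (Clopper-Pearson) and densities exact Poisson 95% intervals, which cover counting error only, as does the limit that a count of 0 allows (3 counts of the total). The assignment of peaks to classes was tested on simulated peaks. Members and gene lists were chosen with earlier results of these data known. The rule named the 10 strongest, 5 farthest, 3 widest and 3 narrowest members, 5 on each side of the limit, clusters, members over THP-1 peaks or other genes, genes nearest to 3 or more members and up to 4 list members each. Other genes were named after their values were seen, among them those with 2 members, those with a boundary peak and small RNA genes within 1000 bp. Python 3.11.15, pandas 2.3.3 and SciPy 1.17.1 were used.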

Additional observations from a re-analysis of the deposited data

How the results depend on the processing

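Of 79 values recomputed under 16 alternatives, 64 stayed within the interval of the reported value or, for counts, within 1.5 times of it. Keeping only peaks with a -log10 q of at least 5 left 134 intergenic peaks, with a median fold of 7.52, a median width of 261 bp, a median distance of 22654.5 bp to a protein-coding gene, 6.72% in genes of other kinds and 3 list genes as nearest gene, among fewer peaks. A gap over 10000 bp left 214 peaks at a median distance of 53302 bp, which follows from the gap. Counting every gene of the table as a gene left 0.0% in other genes by construction, and 0.0% overlapping a THP-1 peak. Peaks in clusters made up 1.57% with neighbours within 5 kb and 20.5% within 50 kb. Within 100 kb, 10 list genes were nearest to a member. Without peaks at the lowest fold, an alternative chosen after seeing the data, as was leaving out mitochondrial copies, the median fold was 5.86 and the median width 232 bp.

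No paired analysis was possible because U-937 replicate 1 was the only library of its line with peaks, so no replicate was left out either. Depth was unknown, and a place without a peak is one without a call by the authors.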

Other observations

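The nearest genes of 5 further members, outside the lists, are given as single values. They were picked after their values were seen and stand for no gene group. ZFP36, which encodes an mRNA-decay factor of inflammatory transcripts, had a member of fold 9.85 at 2942 bp. CTSB, a lysosomal protease gene, had one of fold 6.78 at 9872 bp. DCSTAMP, which encodes a cell fusion protein of osteoclasts and macrophages, had one of fold 5.03 at 9677 bp. PIM3, a kinase gene, had one of fold 6.65 at 6956 bp, and DAPK2, a death-associated kinase gene of granulocytes, one of fold 7.46 at 13902 bp.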
